A study of Mus musculus with 12 samples.

Results

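Rnf182, Fam84a and Ankrd34b were 3 of the 19478 genes measured in the cochlear turns of the mouse. They were chosen by the measured differences between turns, each being among the genes with the largest differences in favor of the apex or the middle turn, and because little is known of them in hearing. The differences between turns that follow are therefore a description of these genes and carry no test. All 3 genes had a lower signal in the base than in the apex on every array. Fam84a was low in the middle turn as well as in the base, so that "low in the base" described Rnf182 and Ankrd34b, while Fam84a was high in the apex alone among the turns measured.

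The cochleae came from male C57BL/6 mice aged 6 weeks, for which the labels name no allele and no treatment. Each cochlea was divided into an apical, a middle and a basal turn, and each piece held organ of Corti, spiral ganglion and lateral wall. There were 12 exon arrays, 4 for each turn, each hybridized with label made from 25 ng of total RNA. Each turn had a slide of its own, and slide and turn cannot be told apart. All 12 samples came from 4 mice, the samples of a turn from separate mice, so the turns share animals. Each piece was a mixture of tissues, so fewer cells of a type and less RNA per cell cannot be told apart either.

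The cochlea is ordered by sound frequency, with low tones received near the apex and high tones near the base. Hair cells along the organ of Corti turn sound into nerve signals, and neurons of the spiral ganglion, wrapped by Schwann cells, carry them to the brain. Rnf182 is a membrane-bound E3 ubiquitin ligase with a RING finger, the zinc-binding fold that receives ubiquitin from an E2 conjugating enzyme and passes it on to a substrate. Fam84a, now named Lratd1, is a protein with an LRAT domain, the fold of lecithin retinol acyltransferase and of several phospholipid acyltransferases. Ankrd34b carries ankyrin repeats, short helical repeats through which many proteins bind others.

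Each gene was read by 1 probe of 60 bases at 1 spot per array, so every value below rests on the sequence shown here, of which the first 30 bases are printed 5′ to 3′ in lower case. The Rnf182 probe lay at chr13:43764119-43764178 on the plus strand of mm9, the Fam84a probe at chr12:14154871-14154930 on the minus strand and the Ankrd34b probe at chr13:93209823-93209882 on the plus strand. The array's design assigns each probe to an exon of its gene, and the exon boundaries were not analysed here. The G and C content of the 60 bases was 36.7% for Rnf182, 38.3% for Fam84a and 36.7% for Ankrd34b.
Rnf182 probe: tggctacgttcaaatgatgtatgtatgatt
Fam84a probe: tcatggttgcaagcaattggatactatggt
Ankrd34b probe: tcttagctagtgcatcgcagctaggcaaat

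The 250 bases before each transcription start are shown because the 3 genes shared a low signal in the base. They come from RefSeq on the GRCm38.p6 build, in which all 3 genes were found, Fam84a under its current name. The windows were chr13:43615547-43615796 on the plus strand for Rnf182, chr12:14152039-14152288 on the minus strand for Fam84a and chr13:92425719-92425968 on the plus strand for Ankrd34b. Capitals mark the CCAAT box (CCAAT) and the GC box (GGGCGG), searched on both strands.
Rnf182 promoter: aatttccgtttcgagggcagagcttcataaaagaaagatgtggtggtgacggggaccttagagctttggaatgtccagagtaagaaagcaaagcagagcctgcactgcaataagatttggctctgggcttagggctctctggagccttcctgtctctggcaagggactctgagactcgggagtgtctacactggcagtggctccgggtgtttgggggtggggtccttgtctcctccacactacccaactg
Fam84a promoter: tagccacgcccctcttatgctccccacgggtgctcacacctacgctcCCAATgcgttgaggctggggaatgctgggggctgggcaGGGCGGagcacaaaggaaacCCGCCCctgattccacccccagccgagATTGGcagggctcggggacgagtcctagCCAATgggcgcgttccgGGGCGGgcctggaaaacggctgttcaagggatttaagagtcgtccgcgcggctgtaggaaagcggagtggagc
Ankrd34b promoter: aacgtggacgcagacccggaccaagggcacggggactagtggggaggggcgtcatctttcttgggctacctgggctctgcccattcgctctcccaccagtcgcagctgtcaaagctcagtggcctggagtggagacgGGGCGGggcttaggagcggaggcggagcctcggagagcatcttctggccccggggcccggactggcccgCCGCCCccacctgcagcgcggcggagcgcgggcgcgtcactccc

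The 3 windows differed in composition. The Rnf182 window held 53.6% G and C and 5 CG pairs, near the medians of 52.4% and 6 over the 32851 windows of this length in the table. The Fam84a window held 64.8% G and C and 19 CG pairs, more pairs than 80.3% of windows. The Ankrd34b window held 70.8% and 23 CG pairs, more than 86.7% of windows. Neither the TATA box (TATAAA, in 12.4% of all windows) nor the E-box (CACGTG, in 6.02%) was found in any of the 3. Fam84a had 3 CCAAT boxes, beginning 203, 118 and 90 bases before the start, and 3 GC boxes at 165, 145 and 73 bases. Ankrd34b had 2 GC boxes, at 113 and 44 bases, and Rnf182 had neither motif. CCAAT occurred in 33.8% and GGGCGG in 32.7% of all windows. No motif occurred in all 3 windows, which says only that these letters are not there.

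Before the genes themselves, the makeup of the pieces is given, since it bears on how the turns can be read. The 4 basal arrays were unlike each other in the neuronal markers. The summed signal of 12 spiral ganglion neuron markers, which include the neurofilaments Nefl, Nefm and Nefh, was 16100, 8380, 35600 and 12200 in basal samples 1 to 4. It ran from 40000 to 51700 in the apex and from 38800 to 68400 in the middle turn, so basal sample 3 stood apart from the other basal samples and close to the other turns. The sum of 7 Schwann cell markers was 9550, 7010, 13400 and 8350 in the base, and 14100 to 15900 in the apex and 14900 to 18000 in the middle turn. The sum of 13 hair cell markers was 4850, 3440, 5570 and 5990 in the base, 14900 to 19400 in the apex and 11500 to 13200 in the middle turn. Among the apical arrays, the sum for bone and cartilage ran from 3290 to 17300, against 10100 to 11700 in the base.

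Gene by gene, the marker lists moved as follows between apex and base. A gene was called changed when the adjusted p of limma's moderated F test was under 0.05 and the means of both turns were at least 2-fold apart, which held for 4.39% of all 19478 genes, 3.27% with the apex higher and 1.12% with the base higher. Of the 13 hair cell markers, 9 were called higher in the apex, with a median log2 difference of 1.7 against -0.036 over all genes; with a normexp background correction 3 were called. Of the 12 neuronal markers, 9 were called higher in the apex, with a median of 1.4. That count was 10 without basal sample 3, 7 without basal sample 2, and 4 when the arrays were scaled to spike-in probes. None of the 7 Schwann cell markers differed 2-fold by limma or by an unmoderated F test, but all 7 were higher in the apex at an adjusted contrast p under 0.05, and all 7 at an unadjusted one, with a median of 0.72. Under spike-in scaling 0 of the 7 passed, and the median was 0.19. Supporting cell markers were called higher in the apex in 4 of 10 cases, and in 2 with the normexp correction. By adjusted contrast p at any fold, 5 of the 10 favored the apex and 2, Gjb2 and Otoa, the base, with a median of 0.41. Under spike-in scaling 4 favored the apex and 5 the base, with a median of -0.12. Calls with the base higher were 1 of 10 stria vascularis, 1 of 7 spiral ligament fibrocyte and 1 of 10 bone and cartilage markers. Of the 7 central glia markers, 1 was called higher in the apex. At any fold, 9 of 10 stria markers (median -0.54) and 5 of 7 ligament markers (median -0.34) favored the base at an adjusted contrast p under 0.05, where 21.6% of all genes favored the base and 17.6% the apex. Under spike-in scaling 6 stria, 2 ligament and 4 bone and cartilage markers were called, and under quantile normalization 0 stria and 0 ligament markers. Of all genes, 1666 were called under spike-in scaling and 772 under quantile normalization, against 855 in the main processing. Under spike-in scaling 76.1% of all genes favored the base at any fold and 3.62% the apex. No marker of immune cells (8), blood (6) or skeletal muscle (6) was called by limma or by an unmoderated F test, and 6, 1 and 3 of them had an unadjusted p under 0.05. All markers on the array were detected throughout at least 1 turn, apart from 1 of central glia.

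Rnf182, the E3 ligase, fell in steps from apex to base. Its scaled signal in apical samples 1 to 4 was 80.1, 95, 113 and 88 fluorescence units, a mean of 94 ± 14 (SD, n = 4). In the middle turn it was 46.6, 17.4, 47.8 and 27.4, a mean of 34.8 ± 15 (SD, n = 4). In the base it was 11.3, 5.65, 7.01 and 6.56, a mean of 7.63 ± 2.5 (SD, n = 4). No array of a turn overlapped with an array of the next. The spot was well above background on all 4 apical arrays, on samples 1 and 3 of the middle turn and on no basal array, and in basal samples 2 and 4 the software had put a small stand-in value in place of a signal.

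The measured means of Rnf182 differed by 3.66 log2 units between apex and base (SE 0.31, 95% interval 2.98 to 4.35). Because no basal spot was well above background, the measured fold is uncertain. Each basal signal was also replaced by the dimmest signal that counted as well above background on its array, 24.7 to 28.8 units. The apex was then 3.43-fold higher than the base. This is not a strict lower bound, because a spot can read above that level without counting as well above background. The normexp correction gave a smaller difference, 1.11 log2 units. On the same footing as the 3.43-fold, the middle turn came to 1.18-fold over the base. That value is less certain still, because only 2 of the 4 middle spots were themselves well above background. The measured difference between middle turn and base was 2.13 log2 units (SE 0.31). The apex exceeded the middle turn by 1.54 log2 units (SE 0.31), or 2.91-fold.

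The size of the Rnf182 difference moved with the treatment of dim spots. Before any subtraction its spot had a mean brightness of 134 to 194 units in the apex, where the surface around it read 46 to 50. In the base the spot read 70.5 to 76.2 and its surround 41 to 44. The apical spots were brighter than the basal ones with no overlap also on this raw scale, but the ratio was smaller. With a normexp correction of these raw values and an offset of 50 units, the difference was 1.11 log2 units, and with 16 units added to every signal it was 2.22. Genes with large measured differences between apex and base and no overlap between arrays included Tectb at 23.8-fold, Fst at 21.2-fold, Kcnip4 at 15.9-fold and Emilin2 at 12.6-fold. Rnf182 is given no place among them because its basal spots were not well above background. Between apex and base, 3.27% of all genes were called in that direction, and 3.53% of the 3229 genes with 1 probe were called in either direction. The contrast chose the gene, so nothing is read from that.

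**Figure D1:**
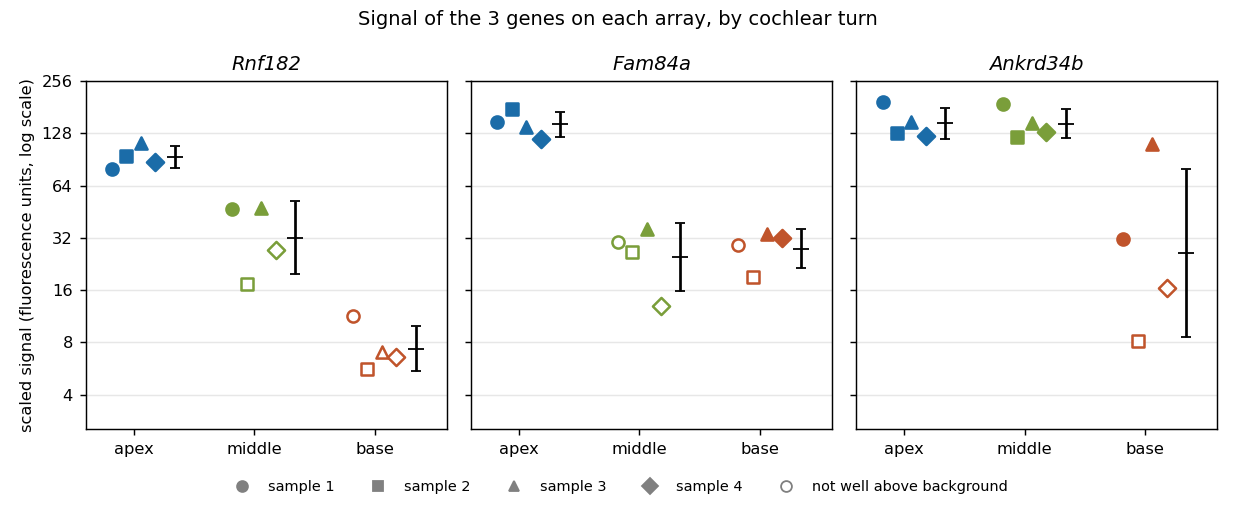
Scaled signal of Rnf182, Fam84a and Ankrd34b on each of the 12 arrays (fluorescence units, log axis), by turn, with sample numbers as symbols and open symbols for spots not well above background. Bars give the mean ± SD of the log2 values (n = 4). Rnf182 falls from turn to turn, Fam84a is high only in the apex, and Ankrd34b is low in the base except in sample 3, at 111 units.

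Fam84a, the LRAT domain gene, was high in the apex and low in both other turns. Its scaled signal in apical samples 1 to 4 was 149, 176, 139 and 118, a mean of 146 ± 24 (SD, n = 4). In the middle turn it was 30.1, 26.6, 36.2 and 13, a mean of 26.5 ± 9.8 (SD, n = 4). In the base it was 29, 19, 33.6 and 31.9, a mean of 28.4 ± 6.5 (SD, n = 4). All apical arrays lay above all others, and the middle and basal arrays overlapped. The spot was well above background on 4 apical arrays, 1 middle array and 2 basal arrays.

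The apex exceeded the middle turn by 2.54 log2 units for Fam84a (SE 0.29, 95% interval 1.90 to 3.18), or 5.81-fold. It exceeded the base by 2.38 log2 units (SE 0.29, interval 1.74 to 3.02), or 5.2-fold. Most middle spots and 2 of 4 basal spots were not well above background, so both folds rest in part on dim values, and with the normexp correction the differences were 1.13 and 1.08. Between the middle turn and the base the difference was -0.16 log2 units (SE 0.29, interval -0.80 to 0.48), the base being 1.12-fold higher, which is within the spread between arrays. This interval does not show that the turns were alike. Among called genes with no overlap between arrays, Fam84a stood at rank 2 of those that favored the apex over the middle turn by measured means, after Tectb at 23.3-fold and ahead of Stc1 at 5.36-fold and Tnc at 5.12-fold, and among all 19478 genes it stood at rank 5. In that comparison 0.436% of all genes were called, 0.298% with the apex higher, and 0.96% of genes with 1 probe were called in either direction.

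Ankrd34b, the ankyrin repeat gene, had nearly the same mean in apex and middle turn and was low in the base on 3 of 4 arrays. Its scaled signal was 195, 128, 149 and 124 in apical samples 1 to 4, a mean of 149 ± 33 (SD, n = 4). In the middle turn it was 189, 122, 147 and 131, a mean of 147 ± 30 (SD, n = 4). In the base it was 31.3, 8.09, 111 and 16.4, a mean of 41.7 ± 47 (SD, n = 4). Basal sample 3 lay just under the lowest array of the other turns, while the other 3 lay far below. The spot was well above background on every apical and middle array and on basal samples 1 and 3.

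For Ankrd34b the middle turn exceeded the base by 2.48 log2 units (SE 0.61, 95% interval 1.14 to 3.82), or 5.58-fold. The apex exceeded the base by 2.49 log2 units (SE 0.61, interval 1.15 to 3.83). Apex and middle turn differed by 0.01 log2 units (SE 0.61, interval -1.33 to 1.35), and their arrays overlapped. The standard error of Ankrd34b was the widest of the 3 genes because of the base, where its SD was 1.6 log2 units, above that of 99.3% of 283 other genes with 1 probe and a like basal level. In the apex and the middle turn its SD was 0.3 and 0.27. The fit assumes a common spread for all turns, so the SE and interval are too narrow for the comparisons with the base. Between apex and middle turn they are too wide. Without basal sample 3 the apex exceeded the base by 3.19 log2 units, and without basal sample 2 by 1.93. Among called genes with no overlap, and among all genes, Ankrd34b stood at rank 3 of those that favored the middle turn over the base, after Kcnip4 at 8.4-fold and Emilin2 at 5.8-fold. There 2.66% of all genes were called, 2.2% with the middle turn higher, and 2.66% of genes with 1 probe.

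**Figure D2:**
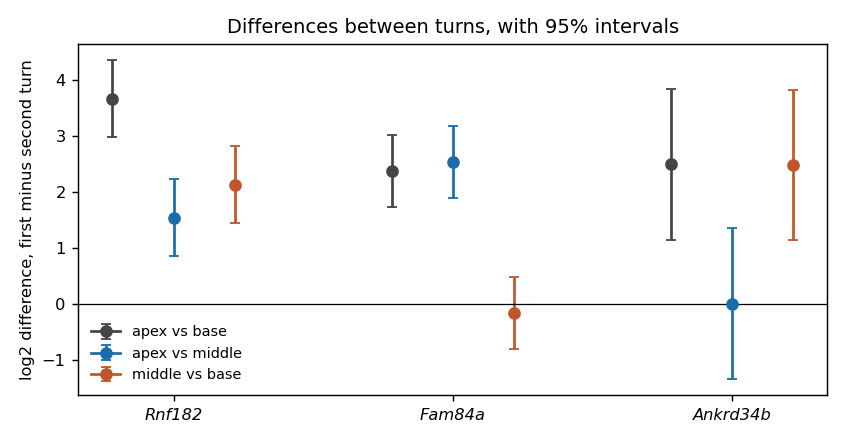
Differences between turns of the 3 genes in log2 units, first turn minus second, with 95% intervals from limma (n = 4 arrays a turn). The interval of Fam84a between middle turn and base and that of Ankrd34b between apex and middle turn include 0, and the intervals of Ankrd34b are the widest. The intervals assume a common spread for all turns, which Ankrd34b did not have.

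Each gene had 1 probe, so only the scaling of the arrays and the treatment of dim spots could move its values. Under 6 such alternatives each leading difference kept its direction, but not its size. With the normexp correction the 3 leading differences came close together, at 1.11 log2 units for Rnf182, 1.13 for Fam84a and 1.04 for Ankrd34b. With 16 units added they were 2.22, 1.95 and 1.8.

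**Figure D3:**
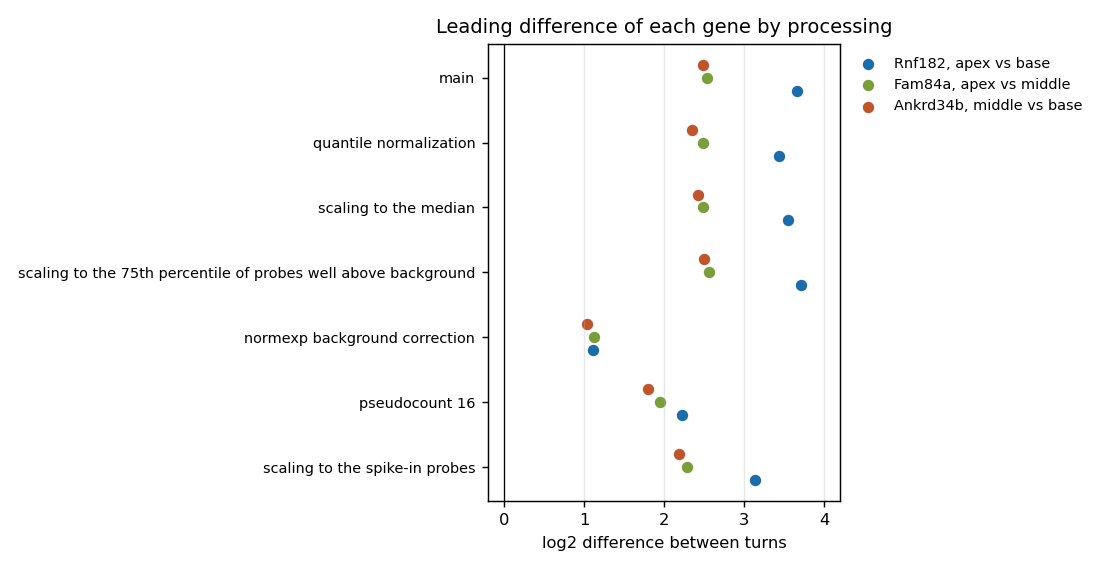
Leading difference of each gene in log2 units under the main processing and the 6 alternatives that could move a gene with 1 probe, for Rnf182 between apex and base, Fam84a between apex and middle turn, and Ankrd34b between middle turn and base. All points lie above 0, and those of the normexp correction lie lowest, between 1.04 and 1.13.

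The 3 genes gave 3 orders of the turns. Rnf182 had apex over middle over base, with each measured step wider than the spread of its arrays. The step from middle to base rests on dim spots, with 2 of 4 middle and 0 of 4 basal spots well above background. With the normexp correction that step was 0.55 log2 units. Fam84a had the apex over the other 2 turns, which did not differ beyond their spread. Ankrd34b had the apex and the middle turn together, over the base. Over the 12 arrays, Pearson's r of the log2 signals was 0.75 for Rnf182 and Fam84a, 0.76 for Rnf182 and Ankrd34b, and 0.43 for Fam84a and Ankrd34b. Once the mean of each turn was removed, r was 0.40, 0.28 and 0.42. These values describe arrays that share 3 slides and carry no test.

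The spread of Ankrd34b within the base had the same order as the neuronal and the Schwann cell markers. From high to low, basal samples ranked 3, 1, 4 and 2 for Ankrd34b, for the summed neuronal markers and for the summed Schwann cell markers alike. The hair cell sum gave another order, with sample 4 highest and sample 2 lowest. Much of that sum was the marker Ocm, with a basal mean of 3670 units. By the mean log2 signal of the hair cell markers, basal samples 1 to 4 read 6.52, 6.19, 6.66 and 6.63. There sample 3 was highest and sample 2 lowest, as for Ankrd34b, and only samples 1 and 4 changed places. Rnf182 in the base, where no spot was well above background, ranked sample 1 first, and Fam84a ranked samples 3 and 4 first. The part of the neuronal and glial content in the Ankrd34b difference was not tested.

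**Figure D4:**
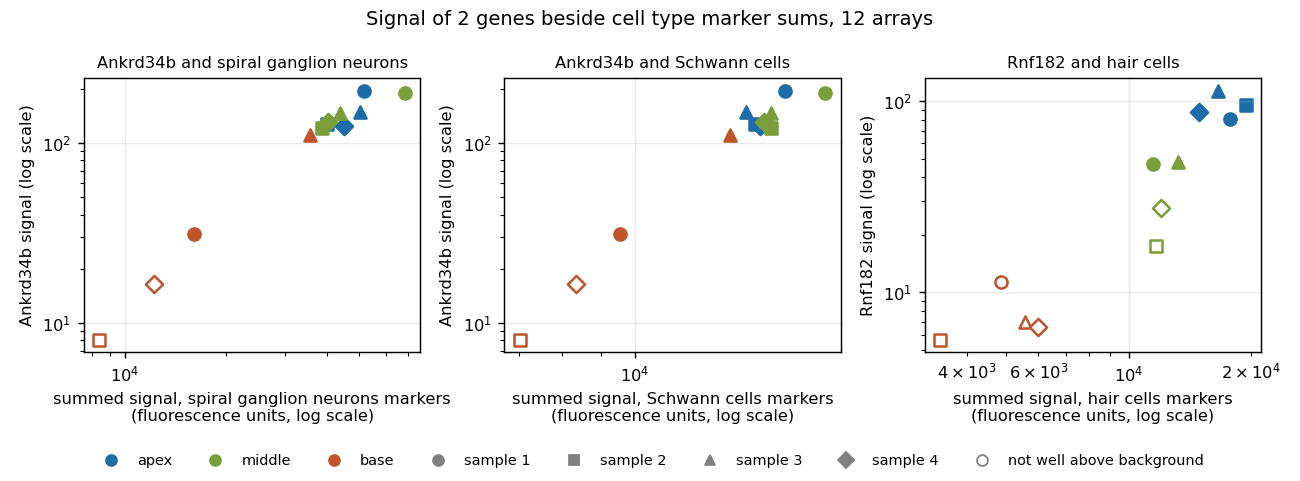
Signal of Ankrd34b against the summed signal of spiral ganglion neuron markers and of Schwann cell markers, and signal of Rnf182 against that of hair cell markers, on each of the 12 arrays (fluorescence units, both axes log). Colors give the turn, symbols the sample and open symbols a spot not well above background. The basal arrays of Ankrd34b run from 8.09 to 111 units in the order of both sums, while the basal arrays of Rnf182 stay between 5.65 and 11.3.

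The genes whose signal followed each of the 3 most closely over the 12 arrays differed. For Ankrd34b, out of 15120 candidates with a probe well above background, they included Nrn1, the neuronal protein neuritin (r = 0.989), Tmem74 (0.989), Olfr1386 (0.988) and Nefl, the light neurofilament (0.988). Nefl had turn means of 13300, 11900 and 3810 units in apex, middle and base, and Nrn1 of 750, 749 and 263. With turn means removed the leading genes were Drp2, a dystrophin relative of Schwann cells (0.979), Nefh, the heavy neurofilament (0.975), Syn1, a protein of synaptic vesicles (0.973), Plekha4 (0.972) and again Nrn1 (0.971). For Ankrd34b, 750 candidates reached r of 0.9 or more over all arrays and 317 still did with turn means removed.

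For Rnf182 the closest genes were Grid1, a glutamate receptor of the delta family (r = 0.986), Odz4, a teneurin (0.983), Ppp1r9a, an actin-binding protein of synapses (0.980), Chrna9, a subunit of the hair cell acetylcholine receptor (0.974), and Robo2, a receptor for axon guidance (0.973). Chrna9 stepped down with the turns as Rnf182 did, at 247, 165 and 71.7 units, and so did Robo2, at 117, 49.1 and 17. Within turns the leading genes included Myl1 (0.893), Kcnk7 (0.875), Sfxn5 (0.873) and Tmem181a (0.860). While 511 candidates reached 0.9 over all arrays, 0 did with turn means removed.

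For Fam84a the closest genes were Mmp23, a metalloproteinase (r = 0.976), Sipa1l1, which acts on Rap GTPases (0.952), Atp2b4, a calcium pump of the plasma membrane (0.949), Mtus1 (0.947) and Tectb, which encodes β-tectorin of the tectorial membrane (0.944). All 5 had nearly level means in the middle turn and the base. For Tectb these were 996, 42.7 and 41.8 units in apex, middle and base, and for Mmp23 120, 60.1 and 58.9. Within turns the leading genes were Efcab7 (0.933), Agbl4 (0.919), Ankrd32 (0.904), Purb (0.889) and Trove2 (0.885). Candidates at 0.9 or more numbered 83 over all arrays and 3 with turn means removed. With 12 arrays and 15120 candidates, high values of r arise readily, and these lists are descriptions.

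The relatives of the 3 genes were not used to choose them and could be tested. Their lists were, however, set with earlier results of these data known. The relatives are read here by limma's contrasts with adjustment over all genes. By these contrasts 39.2% of genes differed between apex and base at any fold. Among RING genes of the same small membrane type as Rnf182, 5 of 8 were on the array. Rnf183 went the other way from Rnf182, with means of 31.9, 41 and 187 units in apex, middle and base. Apex minus base was -2.55 log2 units (SE 0.14, adjusted p = 6.5e-07) and was well above background on 3 apical, 3 middle and 4 basal arrays. It was called under every scaling, the normexp correction and the added 16 units. Rnf152 was also lower in the apex, at -0.94 log2 units (SE 0.22, adjusted p = 0.0054), short of 2-fold here but past it under quantile, median and spike-in scaling.

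Rnf122 differed by 0.45 log2 units in favor of the apex (SE 0.10, adjusted p = 0.0051), and Rnf24 by 0.31 (SE 0.09, adjusted p = 0.013), but both were below 0 under spike-in scaling, at -0.09 and -0.22. Under quantile normalization neither passed (adjusted p = 0.097 and 0.075), and Rnf24 did not under median scaling (adjusted p = 0.086) or with the normexp correction (adjusted p = 0.051). Rnf186 was not well above background in any turn. Of the substrates reported for Rnf182, Atp6v0c, the proteolipid subunit of the proton pump of vesicles, was lower in the apex by 0.39 log2 units (SE 0.07, adjusted p = 6.9e-04), with means of 11200, 13500 and 14700. Under quantile normalization the difference was -0.14 (adjusted p = 0.075). Rela, a subunit of NF-κB, differed by -0.19 (SE 0.08, adjusted p = 0.094), which did not pass. It passed under median scaling (-0.30, adjusted p = 0.016), under spike-in scaling (-0.72, adjusted p = 9.5e-05), with the normexp correction (adjusted p = 0.014) and with 16 units added (adjusted p = 0.026).

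Of all 64 other genes named Rnf, 2 (3.12%) were called between apex and base, against 4.39% of all genes. Besides Rnf183 this was Rnf150, a membrane RING protein, which was higher in the apex by 1.26 log2 units (SE 0.11, adjusted p = 1e-05), with means of 113, 79.5 and 47.4. It fell short of 2-fold with the normexp correction (0.57), the added 16 units (0.99) and spike-in scaling (0.73). At any fold, 17.6% of all genes favored the apex and 21.6% the base at an adjusted p under 0.05. Of the 64, 10 favored the apex and 24 the base, and the median was -0.05. The split was 5 and 28 under median scaling, where 11.6% of all genes favored the apex and 32.2% the base, and 1 and 55 under spike-in scaling, where these shares were 3.62% and 76.1%. Among 33 measured E2 conjugating enzymes, which supply ubiquitin to RING ligases, limma and an unmoderated F test called 0, and 20 had an unadjusted p under 0.05. At any fold, 3 favored the apex and 16 the base, within a range of -0.48 to 0.51 log2 units and a median of -0.16. Under quantile normalization the split was 5 and 9 (15.2% and 27.3%), with a median of -0.06. That was near the 14.9% and 25.6% of all genes there, whose median was -0.078. Under spike-in scaling the split was 0 and 29, with a median of -0.69, against -0.57 over all genes.

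For genes with an LRAT domain 11 names were searched, with older and newer names of the same gene among them, and 4 were on the array. Hrasls, a phospholipid acyltransferase also known as Plaat1, was lower in the base than in both other turns, with means of 230, 236 and 88.7 units. The difference was 1.37 log2 units for apex and base (SE 0.32, adjusted p = 0.005) and 1.41 for middle and base (SE 0.32, adjusted p = 0.011), a contrast in which 20.8% of genes passed at any fold. For apex and base it fell under 2-fold with the normexp correction (0.90) and spike-in scaling (0.84) while keeping its direction. For middle and base it was 0.945 with the normexp correction and 1.12, still over 2-fold, under spike-in scaling. Pla2g16, a phospholipase of the same family, went the other way by -0.75 log2 units (SE 0.09, adjusted p = 7.2e-05), with means of 7950, 10200 and 13300. Lrat itself was not well above background on any array, and Hrasls5 was so on 2 basal arrays alone, with differences of -0.20 (SE 0.12, adjusted p = 0.23) and -0.06 (SE 0.21, adjusted p = 0.87). Fam84b, the closest relative of Fam84a, was not among these 4 and was not analysed here.

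The Ankrd34 family has 2 other members. Ankrd34a had means of 48.9, 46 and 35.1 units and a difference of 0.48 log2 units between apex and base (SE 0.29, adjusted p = 0.24), which did not pass and was -0.05 under spike-in scaling. Ankrd34c was not well above background in any turn. Of 45 other genes named Ankrd, limma and an unmoderated F test called 0 between apex and base, and 22 had an unadjusted p under 0.05. At any fold 14 (31.1%) favored the apex and 6 (13.3%) the base, against 17.6% and 21.6% of all genes. The 45 lay within a range of -0.90 to 0.85 log2 units. Under median scaling the split was 11 and 11, where all genes split 11.6% and 32.2%. Under spike-in scaling it was 1 and 30, where all genes split 3.62% and 76.1%. The median of the 45 was 0.07, but -0.04 under median scaling and -0.46 under spike-in scaling, so it had no settled sign.

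**Figure D5:**
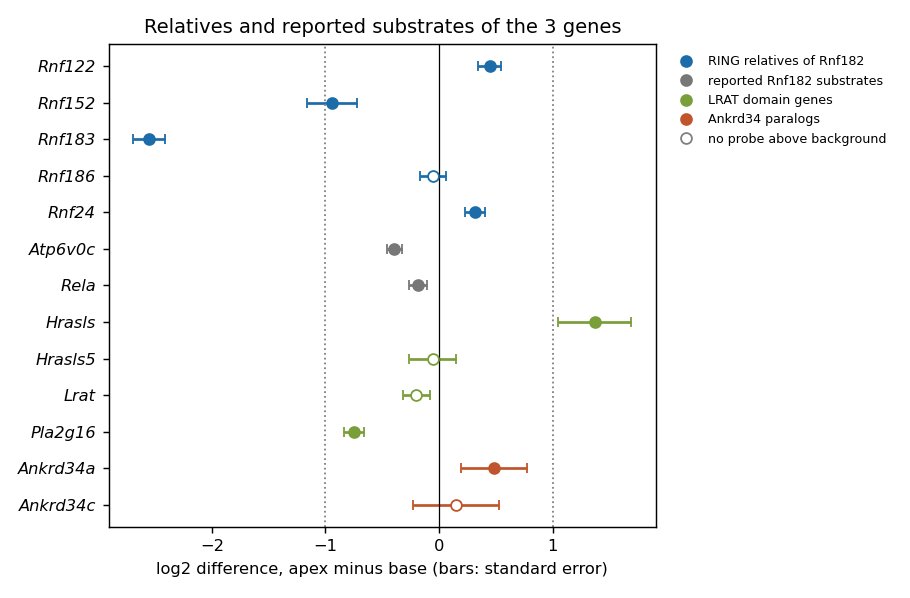
Log2 difference between apex and base, apex minus base, of the relatives of the 3 genes and of the reported substrates of Rnf182, with standard errors (n = 4 arrays a turn) and dotted lines at 2-fold. Open symbols mark genes without a probe that was detected throughout at least 1 turn. Rnf183 at -2.55 and Hrasls at 1.37 lie beyond the lines.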

How the data were processed

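Labels from total RNA of 12 samples were hybridized to single-color mouse exon arrays. The deposited values are intensities that the authors extracted from the scans with Agilent Feature Extraction 10.7.3.1, with the background subtracted and no normalization between arrays. Spots not above background carry a small stand-in value. The raw mean intensity of each spot, the median intensity around it and the flags for detection and outliers were deposited too. The value table of the series held the same processed signal, with 0 cells differing.

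Each array had 180880 spots, from which 7914 controls were removed, and so were 326 of 165984 probes flagged on any array. Signals were divided by the 75th percentile of the array (brought to 640.8), as in the methods, log2 transformed, and averaged over the probes of a gene name, with no pseudocount and no filter on low values. This gave 19478 genes, 3229 of them (16.6%) with 1 probe. Before scaling the 75th percentile ran from 534 to 721.6, and 77.4% to 81.4% of spots were well above background. The median SD of a gene within a turn was 0.106 to 0.126 log2 units. The precision rests on 4 arrays a turn.

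Turns were taken from the labels. Turns were compared with limma 3.58.1 (lmFit and eBayes) in R 4.3.3 on the 12 arrays together, p being adjusted across all genes after Benjamini and Hochberg, and the code was tested on simulated data. Standard errors and 95% intervals come from the same fit, which takes the spread of a gene as equal in all turns. Where no spot of a turn was well above background, a further fold was taken. In it each signal of that turn was replaced by the dimmest signal well above background on its array, where that was higher. Likeness is Pearson's r of log2 values over 12 arrays, with and without the turn means, among 15120 genes with a probe detected throughout at least 1 turn. The text names the 3 genes, their relatives and reported substrates, the other Rnf, Ankrd and E2 genes called changed, and the 5 genes of highest r by each measure. A few genes that this rule names are not reported here. The members, lists and tests were chosen with earlier results of these data known, and the neighbors on the chromosome after the values had been seen. The alternatives were quantile, median, detected-probe and spike-in scaling, normexp background correction (offset 50), 16 units added, only detected probes, other probe summaries, flagged probes kept, the value table, a replicate block, other tests, and each array left out in turn. Spike-in scaling was added after the data had been seen. Motifs were searched in RefSeq windows on GRCm38.p6, and probe positions are on mm9.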

Additional observations from a re-analysis of the deposited data

How the results depend on the processing

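The differences of Rnf182, those of Fam84a with the apex and those of Ankrd34b against the base kept their direction under every alternative that could move a gene with 1 probe, but their size moved with the treatment of dim spots. With the normexp correction the Rnf182 difference was 1.11 log2 units for the apex against the base, 0.56 for the apex against the middle turn and 0.55 for the middle turn against the base. The same correction gave 1.08 and 1.13 for Fam84a in the apex against base and middle, and 1.02 and 1.04 for Ankrd34b in apex and middle against the base. It left 311, 14 and 169 changed genes for apex against base, apex against middle and middle against base, and 1 other Rnf gene. With 16 units added, Rnf182 differed by 2.22 between apex and base and by 1.06 between middle and base, and Fam84a by 1.86 and 1.95. The changed genes were then 568, 39 and 314, with 1 other Rnf gene. The cause was not tested for either.

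Scaling to spike-in probes moved the median of all genes to -0.57 log2 units between apex and base, from -0.036, and median scaling moved it to -0.15. Under spike-in scaling Rnf182 differed by 3.13 and Fam84a by 1.85 between apex and base. It gave 1666 changed genes there and 142 between apex and middle, with 6 other Rnf, 3 other Ankrd and 1 E2 gene. The share of changed genes that favored the apex over the base was 74.5%, against 61.5% under median scaling and 11.1% under spike-in scaling. For apex against middle it was 68.2%, 56% and 21.1%, with 85.7% under normexp, and for middle against base 82.8%, and 41.2% under spike-in scaling. Median scaling and the median of probes each gave 1 other Ankrd gene.

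With each array left out in turn, Rnf182 ran from 3.54 to 3.87 (apex and base), 1.25 to 1.73 (apex and middle) and 1.93 to 2.42 (middle and base). Fam84a ran from 2.20 to 2.47, from 2.23 to 2.72, and between middle and base from -0.34 to 0.15, the last without middle sample 4. Ankrd34b ran from 1.93 to 3.19, from -0.13 to 0.14, and from 1.92 to 3.17 between middle and base. The changed genes ran from 718 to 1011, 74 to 101 and 380 to 690. The other Rnf count stayed at 2, the E2 count at 0, and the other Ankrd count was 1 without basal sample 3 and 0 otherwise. Whether equal sample numbers mark the same mouse is not stated, and the arrays did not settle it: the mean correlation of deviations was 0.095 for 12 pairs of one number, 6 of them over 0.1, and -0.031 for 36 others. With the number as a replicate block, 637 and 216 genes were higher in apex and in base, 3.66 remained the Rnf182 difference, and no other call changed by over 1.5 times.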

Other observations

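The genes named here lie next to the 3 on the chromosome, among those with probes on the array, and were not higher in the apex by 2-fold. The nearest to Rnf182 were Ccdc90a, at 109 kb, which was lower in the apex by 0.38 log2 units (SE 0.08, adjusted p = 0.0041 by limma's contrast), and Cd83, a surface protein of dendritic cells, at 116 kb, which was higher by 0.20 (SE 0.06, adjusted p = 0.031). The Cd83 call was lost under quantile (0.08, adjusted p = 0.35) and median scaling (0.08, adjusted p = 0.36) and with the normexp correction (0.11, adjusted p = 0.074), and its direction turned under spike-in scaling (-0.34, adjusted p = 0.016). Next to Fam84a, Ddx1, an RNA helicase, lay 899 kb away and differed by -0.03 (SE 0.05, adjusted p = 0.74), and by -0.56 under spike-in scaling (adjusted p = 0.00044). Trib2, a pseudokinase, lay 1640 kb away on the other side and was higher in the apex by 0.75 (SE 0.12, adjusted p = 5e-04), with means of 304, 291 and 181 units in apex, middle and base. Under spike-in scaling the Trib2 difference was 0.22 (adjusted p = 0.14). On one side of Ankrd34b, Zfyve16 at 48.1 kb differed by -0.12 (SE 0.06, adjusted p = 0.11), which did not pass, but it did under quantile (-0.20, adjusted p = 0.0086), median (-0.24, adjusted p = 0.0051) and spike-in scaling (-0.66, adjusted p = 0.00038).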
